A study of Mus musculus with 12 samples.

Results

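The cholesterol genes described here are the enzymes that make cholesterol, the proteins that sense it, and those that take it up, store it or export it, measured by RNA-seq in mouse epididymal fat, a white adipose depot (eWAT). The members were chosen by symbol: 31 genes were listed, and 30 of them had a row among the 23474 genes of the expression table. Mvd was not analysed here. The 30 genes fall into 17 enzymes of cholesterol synthesis, 4 members of the SREBP2 system (Srebf2, Insig1, Insig2 and Scap), 2 liver X receptors (Nr1h2 and Nr1h3), 3 efflux genes (Abca1, Abcg1 and Apoe) and 4 genes of uptake, transport and storage (Scarb1, Npc1, Stard4 and Soat1).

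The mice were C57BL/6J males that had eaten their diet for 12 weeks, and the eWAT was taken at 17 weeks of age after an overnight fast. The ND group received a normal diet and the HFD group a high-fat diet. The GT group received the high-fat diet with 0.25% (w/w) of an ethanol extract of green tea, and the TJ group received it with 3% (w/w) of Taeeumjowuitang (TJ), a mixture of plant water extracts. There were 3 libraries in each of the 4 groups and 12 in all, each from the fat pad of a single mouse. Expression is given as FPKM, which is fragments scaled to transcript length and to the depth of the library. FPKM values carry no counting error, and the read depth behind them was not derived, so the errors below are the spread between mice.

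Cells can make cholesterol from acetyl-CoA through mevalonate, squalene and lanosterol. When sterol in the endoplasmic reticulum falls, SCAP carries the transcription factor SREBP2 to the Golgi, where it is cut and released to switch on the genes of synthesis and uptake. INSIG proteins hold it back when sterol is plentiful. Liver X receptors are activated by oxysterols and switch on efflux genes such as Abca1 and Abcg1. Adipocytes keep a large pool of free cholesterol in the membrane and on the lipid droplet, whereas macrophages, which gather in obese fat, esterify surplus cholesterol through Soat1.

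The start of 4 of these genes is printed because they carry the contrast described below. Lss and Srebf2 fell in the TJ group, Insig1 was separated from the HFD group without passing the test, and Hmgcs1, an early enzyme of the same pathway, did not fall. Each stretch lies before the RefSeq transcription start, read 5′ to 3′ on the strand of the gene (RefSeq, GRCm38.p6), and ends where the first annotated exon begins or, for Hmgcs1, at the start itself. Capitals mark TCACNCCAC and TCACCCCA, which are spellings of the sterol regulatory element and can overlap. They also mark the CCAAT box, which reads ATTGG when it lies on the opposite strand of the stretch. The last motif in capitals is the E-box, spelled CACGTG. Each motif was searched on both strands. Lss lies at chr10:76531355-76531587 (plus strand), Srebf2 at chr15:82147019-82147180 (plus), Insig1 at chr5:28071162-28071362 (plus) and Hmgcs1 at chr13:119690101-119690350 (plus).
Lss: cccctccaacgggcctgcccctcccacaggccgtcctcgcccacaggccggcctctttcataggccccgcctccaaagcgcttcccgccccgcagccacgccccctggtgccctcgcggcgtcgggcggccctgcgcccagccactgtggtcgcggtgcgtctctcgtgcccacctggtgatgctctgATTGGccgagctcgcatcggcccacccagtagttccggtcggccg
Srebf2: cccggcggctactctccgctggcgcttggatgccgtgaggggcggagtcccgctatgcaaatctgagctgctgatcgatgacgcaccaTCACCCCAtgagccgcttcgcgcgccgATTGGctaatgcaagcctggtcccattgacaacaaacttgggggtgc
Insig1: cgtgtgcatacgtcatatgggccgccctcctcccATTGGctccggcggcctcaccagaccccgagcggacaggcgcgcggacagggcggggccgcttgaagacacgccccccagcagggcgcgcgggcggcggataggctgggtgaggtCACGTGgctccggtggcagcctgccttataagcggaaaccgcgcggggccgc
Hmgcs1: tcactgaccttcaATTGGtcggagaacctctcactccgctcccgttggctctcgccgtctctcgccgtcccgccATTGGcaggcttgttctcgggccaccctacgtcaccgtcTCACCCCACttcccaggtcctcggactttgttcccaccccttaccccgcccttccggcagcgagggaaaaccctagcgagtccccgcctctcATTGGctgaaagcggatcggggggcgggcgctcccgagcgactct
Of the 30 genes, 23 had a RefSeq window of 250 bases before to 50 bases after a start. TCACNCCAC was found for 1 of these 23 genes (Hmgcs1) and for 1.44% of all 27025 genes with a window, and TCACCCCA for 3 (Apoe, Hmgcs1 and Srebf2) and for 1.77% of all. CCAAT was found for 17 of the 23 genes and for 41.1% of all, and CACGTG for 6 and for 8.09% of all. Of the 32851 windows themselves, 1.24%, 1.56%, 37.4% and 7.15% held these letters. These letters were settled after several spellings had been tried, and a match is a description of the sequence only.

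The libraries were first checked against marker genes. ND replicate 1 stood apart. Its 16 testis germ cell markers summed to 105566 FPKM against 1.62 to 3428 in the other 11 libraries, its 9 epididymis markers to 15594 FPKM, and its 10 adipocyte markers to 1446 against 5741 to 14936 FPKM. Its Spearman correlation with the other libraries over genes was 0.665 to 0.829, whereas pairs without it reached 0.873 to 0.981. ND replicate 3 (3428 FPKM) and HFD replicate 1 (2283 FPKM) also held germ cell markers and HFD replicate 2 held epididymis markers (1275 FPKM). Results on the ND group are therefore given with and without ND replicate 1. A gene was called when its Benjamini-Hochberg adjusted p in limma was under 0.05 and its fold change was at least 1.5, and log2 fold changes are on the scale of log2(FPKM + 1) with their standard error (SE). All 30 genes passed the filter of a mean of 1 FPKM in every comparison.

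The main contrast was the addition of TJ to the high-fat diet. In the TJ group, 11 of the 30 cholesterol genes were called lower than in the HFD group and none was called higher. The genes that fell were 8 enzymes of synthesis (Lss, Sqle, Cyp51, Nsdhl, Idi1, Hsd17b7, Msmo1 and Fdps), the transcription factor gene Srebf2, and Npc1 and Stard4, which move cholesterol inside the cell. Of all 12807 genes tested, 11.1% were called lower and 7.41% higher. Values of the TJ group lay entirely below those of the HFD group for 17 of the 30 genes (31.4% of all genes) and entirely above them for 2 (20.1%). Before adjustment, 20 of the 30 genes had p under 0.05 (41.4% of all genes). The median log2 fold change was -0.60 over the 30 genes, -0.89 over the 17 enzymes and -0.14 over all tested genes. Over the 30 genes it ranged from -0.75 to -0.42 with single libraries left out, the last without TJ replicate 2, where all genes were at -0.10. Without that library and under median-of-ratios scaling, a setting added later, it was -0.34. In bulk tissue, fewer cells of a type and less RNA per cell cannot be told apart.

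**Figure D1:**
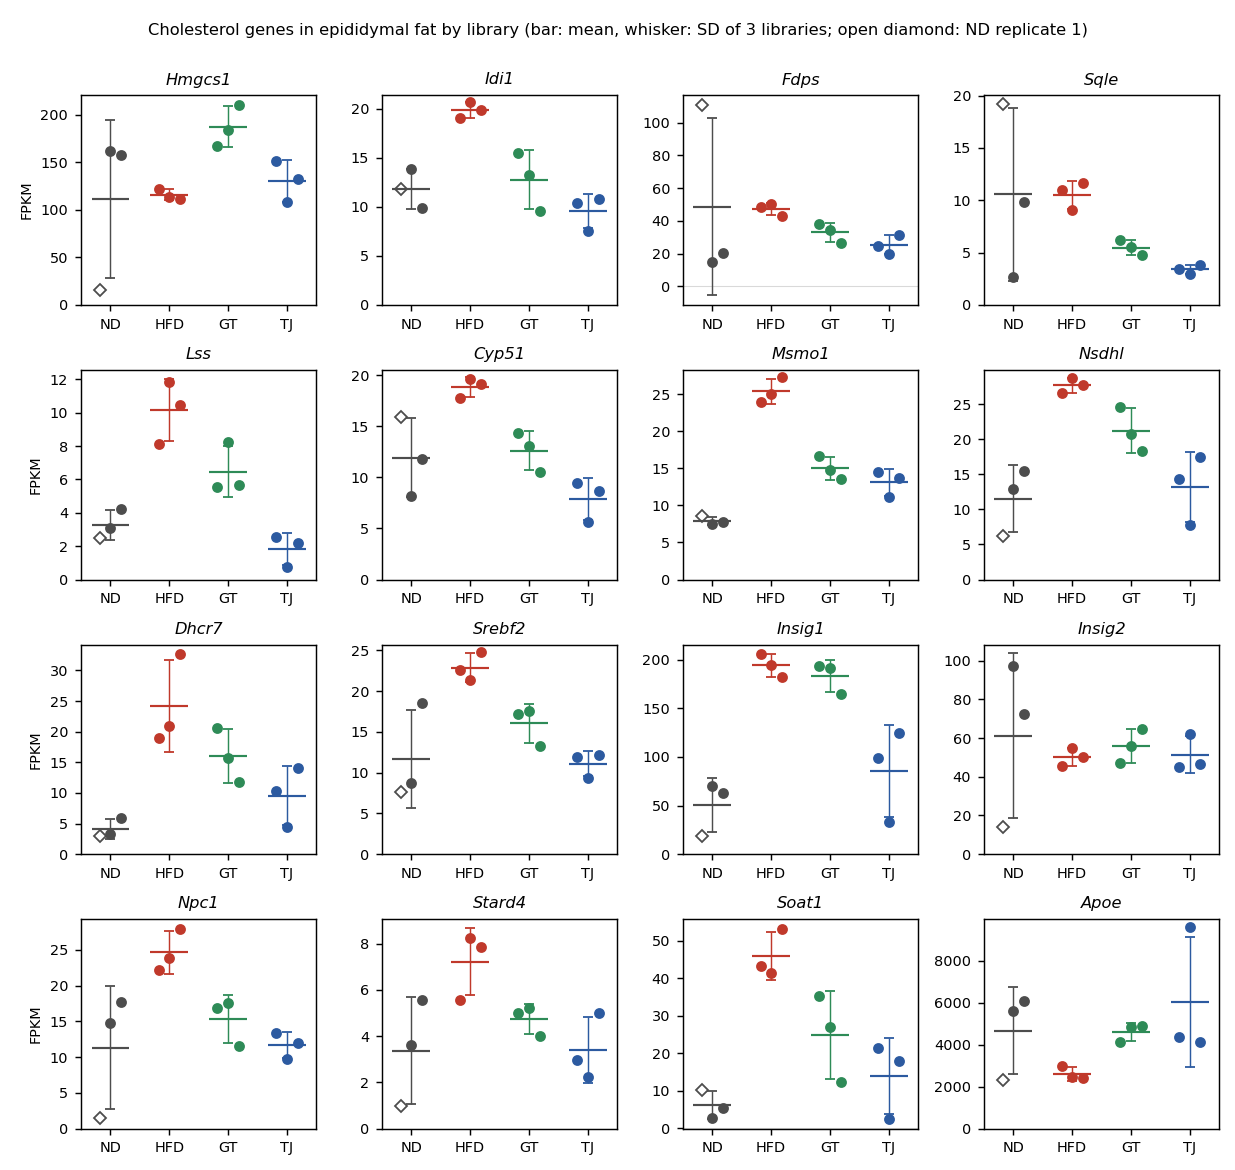
FPKM of 16 cholesterol genes in the 12 libraries (one point per mouse; bar, group mean; whisker, SD of 3 libraries; open diamond, ND replicate 1; each panel has its own linear axis). For Lss, Sqle, Cyp51, Msmo1 and Srebf2 the 3 TJ points lie below the 3 HFD points, while those of Hmgcs1 overlap.

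Lss (ENSMUSG00000033105; GRCm38 chromosome 10, 76531588 to 76557138) encodes lanosterol synthase, which closes squalene epoxide into the first sterol of the pathway. It was at 8.15, 11.8 and 10.5 FPKM in HFD replicates 1 to 3 and at 2.58, 0.731 and 2.20 FPKM in TJ replicates 1 to 3. All TJ values were under all HFD values, and TJ replicate 2 was the lowest of the 12 libraries. The means were 10.1 ± 1.86 FPKM (SD, n = 3) and 1.83 ± 0.974 FPKM (SD, n = 3), with a log2 fold change of -2.03 (SE 0.30, adjusted p of 0.0202 in limma). Sqle (ENSMUSG00000022351; chromosome 15, 59315077 to 59331192), the squalene epoxidase that acts just before Lss, was at 10.9, 9.05 and 11.6 FPKM in the HFD group and 3.47, 2.92 and 3.82 FPKM in the TJ group. The groups were again apart, and the TJ libraries lay close together, at 3.40 ± 0.449 FPKM (SD, n = 3) against 10.5 ± 1.33 FPKM (SD, n = 3). For Sqle the log2 fold change was -1.39 (SE 0.15, adjusted p of 0.0196 in limma). Cyp51 (chromosome 5, 4081145 to 4104746), the lanosterol demethylase that follows Lss, was at 17.8, 19.6 and 19.1 FPKM in the HFD group and 9.46, 5.59 and 8.62 FPKM in the TJ group, with a log2 fold change of -1.19 (SE 0.19, adjusted p of 0.0232 in limma). With a pseudocount of 0.01 in place of 1, the log2 fold change was -2.63 for Lss, -1.63 for Sqle and -1.29 for Cyp51.

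The enzymes that strip the methyl groups from lanosterol fell together with Cyp51. Msmo1 (ENSMUSG00000031604; chromosome 8, 64718139 to 64733792), the methylsterol monooxygenase, was at 23.9, 25.0 and 27.3 FPKM in the HFD group and 14.5, 11.1 and 13.6 FPKM in the TJ group. The means of 25.4 ± 1.69 and 13.1 ± 1.77 FPKM (SD, n = 3) differed by a log2 fold change of -0.91 (SE 0.14, adjusted p of 0.0223 in limma). Nsdhl (chromosome X, 72918557 to 72958514), the dehydrogenase of the same step, was at 26.6, 28.7 and 27.8 FPKM against 14.3, 7.74 and 17.4 FPKM. The TJ libraries spread widely, yet the highest was under the lowest HFD library, and the log2 fold change was -1.09 (SE 0.27, adjusted p of 0.038 in limma). Hsd17b7 (chromosome 1, 169949535 to 169969241), the ketoreductase that completes the demethylation, was expressed at a low level, 5.06, 6.14 and 7.55 FPKM in the HFD group and 2.89, 1.57 and 3.92 FPKM in the TJ group, with a log2 fold change of -0.97 (SE 0.27, adjusted p of 0.0449 in limma).

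In the isoprenoid segment before squalene, 2 enzymes fell. Idi1 (chromosome 13, 8885501 to 8892451), the isomerase that interconverts the isoprene units, was at 19.0, 20.7 and 19.9 FPKM in the HFD group and 10.3, 7.57 and 10.8 FPKM in the TJ group. Its means were 19.9 ± 0.834 and 9.56 ± 1.74 FPKM (SD, n = 3), and its log2 fold change was -0.997 (SE 0.15, adjusted p of 0.0223 in limma). Fdps (chromosome 3, 89093588 to 89101959), farnesyl diphosphate synthase, was at 48.4, 50.3 and 43.2 FPKM against 24.9, 20.1 and 31.5 FPKM, with a log2 fold change of -0.89 (SE 0.18, adjusted p of 0.0279 in limma). For both genes the TJ group lay entirely below the HFD group.

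The other 9 enzymes did not pass the test. The first enzymes of the pathway overlapped between the groups. Hmgcs1 (ENSMUSG00000093930; chromosome 13, 119690379 to 119708260), which makes HMG-CoA, was at 122, 113 and 112 FPKM in the HFD group and 151, 108 and 132 FPKM in the TJ group (log2 fold change 0.16 (SE 0.16)). The acetoacetyl-CoA thiolase Acat2 was at 21.1 ± 2.54 and 18.5 ± 2.39 FPKM (SD, n = 3), and mevalonate kinase, Mvk, at 21.2 ± 1.84 and 20.4 ± 1.66 FPKM. Phosphomevalonate kinase, Pmvk, was at 25.6 ± 2.25 and 31.8 ± 5.76 FPKM. Squalene synthase, Fdft1, stands between Fdps and Sqle in the pathway and had nearly equal means, 30.8 ± 5.47 FPKM (SD, n = 3) and 31.2 ± 5.09 FPKM (SD, n = 3). Late in the pathway, the sterol isomerase Ebp was at 31.8 ± 1.37 and 31.5 ± 0.933 FPKM. Tm7sf2, a sterol reductase, Sc5d, a sterol desaturase, and Dhcr7, the reductase that can give cholesterol as its product, were separated between the groups without passing the threshold. Tm7sf2 was at 8.70 ± 1.52 and 5.87 ± 0.579 FPKM and Sc5d at 66.9 ± 8.23 and 47.3 ± 8.07 FPKM (SD, n = 3). Dhcr7 (chromosome 7, 143823145 to 143848410) was at 18.9, 20.9 and 32.7 FPKM in the HFD group and 10.3, 4.38 and 14.0 FPKM in the TJ group, and its log2 fold change was -1.33 (SE 0.39, adjusted p of 0.0522 in limma). The exons of Hmgcs1, Idi1, Fdps, Fdft1, Lss, Cyp51, Tm7sf2, Scap, Nr1h3 and Npc1 overlap those of a neighbouring or antisense gene, and the counting was not stated to use strand, so part of their fragments may belong to that gene.

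**Figure D2:**
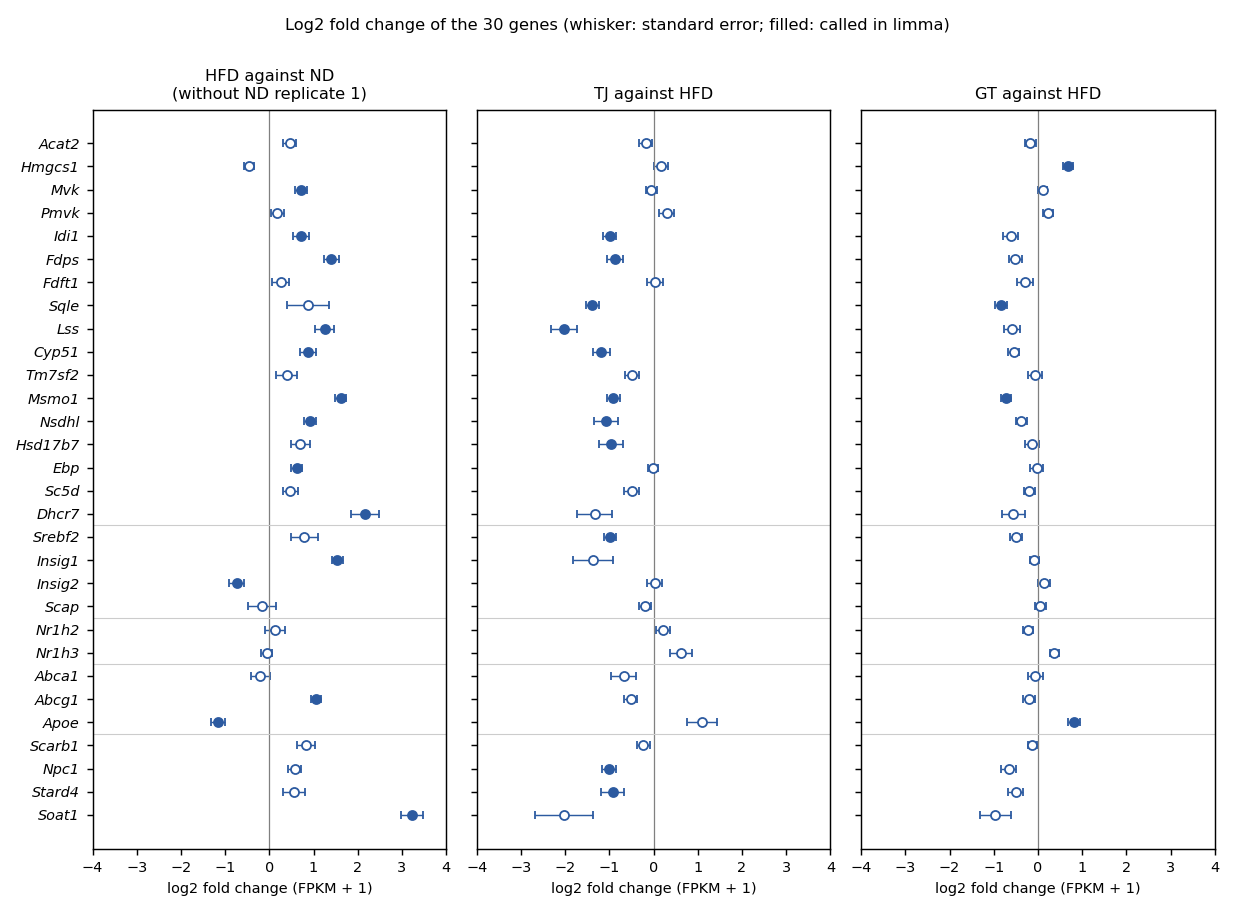
Log2 fold change of the 30 genes on the log2(FPKM + 1) scale (whisker, standard error; filled, called in limma; horizontal lines part the gene groups). In the middle panel, the 11 filled points of TJ against HFD are all at or below -0.89, and Hmgcs1, Mvk, Pmvk, Fdft1 and Ebp lie near 0.

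In the SREBP2 system, 1 of 4 genes fell with TJ. Srebf2 (ENSMUSG00000022463; chromosome 15, 82147181 to 82205379), which encodes SREBP2, was at 22.6, 21.4 and 24.8 FPKM in the HFD group and 11.9, 9.33 and 12.2 FPKM in the TJ group. The groups were apart, with means of 22.9 ± 1.73 FPKM (SD, n = 3) and 11.1 ± 1.56 FPKM (SD, n = 3), and the log2 fold change came to -0.99 (SE 0.14, adjusted p of 0.02 in limma). Insig1 (ENSMUSG00000045294; chromosome 5, 28071363 to 28078662), an INSIG gene that SREBP2 itself switches on, was at 206, 194 and 182 FPKM against 99.1, 33.2 and 124 FPKM. The groups did not overlap, but the TJ libraries varied strongly and replicate 2 was the lowest, and a log2 fold change of -1.37 (SE 0.45) had a limma adjusted p of 0.0679. Without TJ replicate 2 the value for Insig1 was -0.80, and it was called. Insig2, whose product also retains SCAP, was at 50.2 ± 4.57 and 51.3 ± 9.53 FPKM (SD, n = 3), and Scap, the escort of SREBP2, at 15.9 ± 1.49 and 13.8 ± 1.28 FPKM. Both of these overlapped between the groups.

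Of the 4 genes of uptake, transport and storage, Npc1 and Stard4 fell. Npc1 (ENSMUSG00000024413; chromosome 18, 12189692 to 12236400) exports cholesterol from the lysosome and was at 22.2, 23.8 and 28.0 FPKM in the HFD group and 13.4, 9.78 and 12.0 FPKM in the TJ group, with a log2 fold change of -1.01 (SE 0.16, adjusted p of 0.0223 in limma). Stard4 (chromosome 18, 33199355 to 33213862), a cytosolic sterol carrier, was at 5.55, 8.26 and 7.84 FPKM against 2.99, 2.25 and 4.98 FPKM, with a log2 fold change of -0.93 (SE 0.26, adjusted p of 0.0465 in limma). Soat1 (ENSMUSG00000026600; chromosome 1, 156424525 to 156474331), which makes cholesteryl esters, was at 43.2, 41.3 and 53.2 FPKM in the HFD group and 21.3, 2.51 and 17.95 FPKM in the TJ group. All TJ values were lower, but replicate 2 was far under the other two, and the log2 fold change of -2.03 (SE 0.66, adjusted p of 0.0648 in limma), the smallest of the 30 genes, was not called. Lss was at nearly the same value, also -2.03 when rounded. Without TJ replicate 2 the log2 fold change was -1.18 for Soat1 and -1.71 for Lss, so the order of these genes turned. Scarb1, the HDL receptor, overlapped between the groups at 83.6 ± 5.56 and 71.5 ± 10.7 FPKM (SD, n = 3).

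The liver X receptors and the efflux genes gave no call with TJ. Nr1h3 was at 63.1, 54.3 and 52.7 FPKM in the HFD group and 78.8, 127 and 65.4 FPKM in the TJ group, all TJ values being higher. Nr1h2 was at 44.9 ± 5.78 and 52.4 ± 7.32 FPKM (SD, n = 3) and overlapped. The cholesterol exporter Abca1 was at 34.4, 53.5 and 51.6 FPKM against 29.4, 19.2 and 39.2 FPKM, and it overlapped too. Abcg1, the exporter to HDL, was at 50.1, 45.9 and 52.2 FPKM against 38.2, 29.6 and 34.9 FPKM, and its log2 fold change of -0.52 (SE 0.14, adjusted p of 0.0439 in limma) missed the fold change of 1.5. Apoe (ENSMUSG00000002985; chromosome 7, 19696109 to 19699188), the apolipoprotein that accepts exported cholesterol, had by far the highest FPKM of the 30 genes, 3009, 2452 and 2415 in the HFD group and 4364, 9619 and 4146 in the TJ group. All TJ values were higher and TJ replicate 2 was the highest, and a log2 fold change of 1.10 (SE 0.34, adjusted p of 0.0579 in limma), the largest of the 30 genes, was not called. Without TJ replicate 2 it was 0.70 and was called.

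The calls for TJ depended on single libraries. When HFD replicate 1, 2 or 3 was left out, or TJ replicate 1, limma called 0 of the 30 genes and 0 of all genes tested, although 19, 16, 15 and 18 of the 30 had an unadjusted p under 0.05, as did 29% to 38.2% of all genes. Without TJ replicate 2 there were 13 calls (12 lower and 1 higher) where 15.7% of all genes were called, and without TJ replicate 3 there were 15 (13 lower and 2 higher) where 26.5% were. A fit with all 12 libraries called 0 of the 30 genes (13 at an unadjusted p under 0.05, where 17% of all genes were), and one with the 11 libraries other than ND replicate 1 called 15, and 23.4% of all genes. Median-of-ratios scaling moved the median of all genes from -0.14 to -0.03 and the split of calls over all genes from 949 higher and 1417 lower to 1226 and 1178, with 11 of the 30 genes called lower.

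Markers of several cell types also differed between the TJ and HFD groups. All 12 macrophage markers had lower means in the TJ group, and 11 lay entirely below the HFD group. All 6 adipose progenitor markers lay entirely below it too, and 15 of 16 testis germ cell markers had lower means. The 12 macrophage markers, all present in the table and none at 0, summed to 2545 to 3530 FPKM in the HFD group and 532 to 1338 FPKM in the TJ group, with TJ replicate 2 the lowest. Of the 10 adipocyte markers, 9 lay higher in every TJ library than in any HFD library and Lep lay lower, and their sum was 5741 to 5800 FPKM in the HFD group and 9119 to 14936 FPKM in the TJ group, with TJ replicate 2 the highest. The 6 adipose progenitor markers summed to 777 to 889.7 and 545 to 619 FPKM, and the 6 endothelial markers to 215 to 245 and 257 to 420.4 FPKM. The 8 lymphocyte markers summed to 2.47 to 2.99 and 5.43 to 8.66 FPKM, with Ms4a1 at 0 in all libraries. The part of these cell types in the results was not tested.

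**Figure D3:**
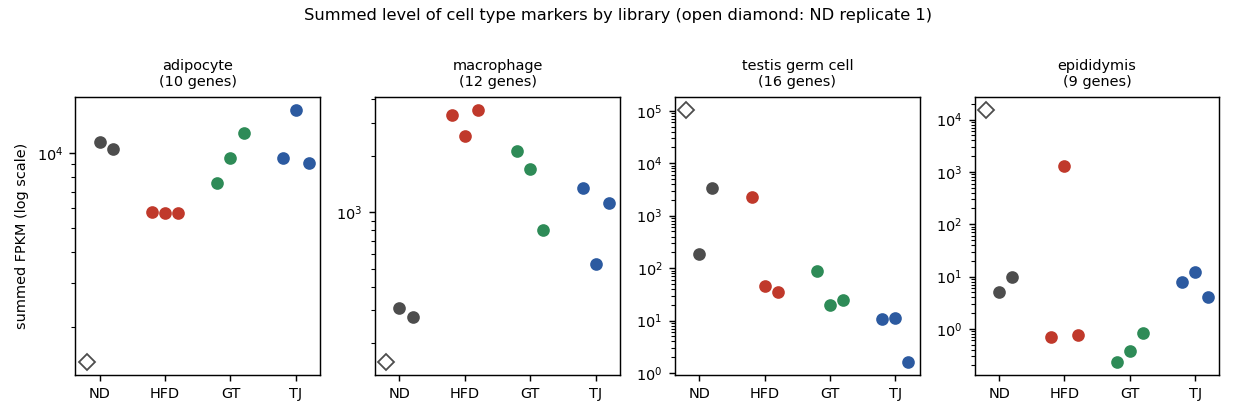
Summed FPKM of marker genes in the 12 libraries (log axis; one point per library; open diamond, ND replicate 1). Macrophage markers are highest in the HFD group and lowest in the ND group, adipocyte markers are lower in the HFD group than in the GT and TJ groups, and ND replicate 1 has the highest germ cell and epididymis sums and the lowest adipocyte sum.

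Among 54 other genes of sterol metabolism taken from a list, 48 were tested with TJ and 10 (20.8%) were called, 4 higher and 6 lower, where 18.5% of all genes were called (7.41% higher and 11.1% lower). The highest was Apoc1, an apolipoprotein gene next to Apoe, with a log2 fold change of 1.61 (SE 0.27, adjusted p of 0.0241 in limma). The lowest was Msr1, a scavenger receptor of macrophages, with -2.26 (SE 0.50, adjusted p of 0.0311 in limma). Nceh1 and Lipa, which encode hydrolases of cholesteryl esters, were called lower at log2 fold changes of -2.22 and -2.17. Mbtps2, a protease that cuts SREBP2, was also called lower, at a log2 fold change of -1.06, and Tspo, Cyp27a1 and Acat1 were called higher.

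Next, the effect of the high-fat diet itself was asked by comparing HFD with ND. In the HFD group, 3 of the 30 genes, Soat1, Dhcr7 and Msmo1, were called higher and none lower, where 1.73% of all 14430 genes tested were called higher and 0.0416% lower. HFD values lay entirely above ND values for 16 genes (20.5% of all genes) and below them for 0 (5.89%). The median log2 fold change was 0.69 over the 30 genes and 0.07 over all genes, and 0.48 and -0.13 under median-of-ratios scaling. Without ND replicate 1, 14 genes were called: 12 higher (9 enzymes, Insig1, Abcg1 and Soat1) and 2 lower (Apoe and Insig2). The background was then 11% higher and 4.34% lower of 13661 genes, and the median was 0.66 against -0.02 over all genes. The values were entirely above ND for 19 genes (28.0% of all) and below for 3 (19.2%). The direction of 8 of the 30 genes turned when this library was left out. Tm7sf2 (-0.27 to 0.39), Fdft1 (-0.63 to 0.26) and Pmvk (-0.08 to 0.18) turned from lower to higher on the log2 scale. Hmgcs1, Insig2, Abca1 (0.89 to -0.20), Nr1h3 (0.33 to -0.05) and Scap (0.19 to -0.17) turned from higher to lower.

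Soat1 rose the most. It was at 10.2, 2.89 and 5.39 FPKM in ND replicates 1 to 3 and at 43.2, 41.3 and 53.2 FPKM in the HFD group, so that every HFD library was several times above every ND library. The log2 fold change was 2.84 (SE 0.44, adjusted p of 0.045 in limma), and without ND replicate 1 it was 3.22 (SE 0.25, adjusted p of 0.00193 in limma), with adjusted p from 4.4e-05 to 0.333 over all alternatives. Dhcr7 was at 3.03, 3.30 and 5.94 FPKM against 18.9, 20.9 and 32.7 FPKM. Its groups were far apart too, with a log2 fold change of 2.31 (SE 0.37, adjusted p of 0.0475 in limma), and of 2.16 without ND replicate 1. Msmo1 was at 8.50, 7.54 and 7.70 FPKM in the ND group, where ND replicate 1 was close to the others, and at 23.9, 25.0 and 27.3 FPKM in the HFD group. The log2 fold change for Msmo1 was 1.57 (SE 0.25, adjusted p of 0.047 in limma), and 1.61 without ND replicate 1. When the replicate number was used as a block, limma called 0 of the 30 genes and 0 of the 14430 genes, with 7 of the 30 and 15.5% of all genes at an unadjusted p under 0.05. Limma also called 0 of the 30 without ND replicate 2 or 3 or without HFD replicate 1, 2 or 3, where 6 to 10 of the 30 and 5.79% to 26.2% of all genes were at an unadjusted p under 0.05 and at most 0.165% of all genes were called.

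A further 11 genes were called when ND replicate 1 was left out. A fit of all 12 libraries, which kept it, called 9 of the 30 genes higher (7.84% of all genes called), Insig1, Lss, Abcg1, Mvk and Nsdhl among them. Insig1 was at 18.4, 69.6 and 62.5 FPKM in the ND group, and all HFD values of 206, 194 and 182 FPKM were higher. Its log2 fold change was 2.14 with 3 ND libraries (6-library limma adjusted p = 0.167) and 1.54 without ND replicate 1, where it was called. Lss was at 2.49, 3.09 and 4.24 FPKM in the ND group, so the TJ values of this gene were in the range of ND replicates or under it. Without ND replicate 1, the log2 fold change of HFD against ND was 1.25 for Lss, 1.41 for Fdps, 0.93 for Nsdhl, 0.88 for Cyp51, 0.72 for Idi1, 0.72 for Mvk and 0.62 for Ebp, all called higher. With the 3 ND libraries these were 1.39, 0.53, 1.28, 0.66, 0.71, 0.67 and 0.36, none called in the fit of 6 libraries. Fdps and Fdft1 reached 111 and 166 FPKM in ND replicate 1, above every other library (14.7 to 50.3 and 19.9 to 36.7 FPKM). Hmgcs1 and Sc5d were at 15.9 and 5.66 FPKM there, below every other library.

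The direction of Hmgcs1 turned with ND replicate 1. Its values of 161 and 158 FPKM in ND replicates 2 and 3 were above the HFD values. Its log2 fold change was 0.62 with the 3 ND libraries and -0.46 without ND replicate 1, and it was called in neither fit. Insig2 was at 14.0, 97.1 and 72.5 FPKM in the ND group and 45.5, 54.7 and 50.3 FPKM in the HFD group. Its direction turned with ND replicate 1, from a log2 fold change of 0.10 with it to -0.73 without it, where it was called lower. Apoe was at 2303, 5592 and 6110 FPKM in the ND group. With the 3 ND libraries it had the smallest log2 fold change of the 30 genes, -0.71 (SE 0.57, adjusted p of 0.544 in limma), and without ND replicate 1 it was called lower at -1.16. Of the remaining genes, Srebf2 was at 7.69, 8.78 and 18.5 FPKM, Scarb1 at 35.2, 37.8 and 58.1 FPKM and Npc1 at 1.49, 14.8 and 17.7 FPKM in the ND group, all below the HFD values. Abcg1 was at 10.8, 22.3 and 24.3 FPKM in the ND group and was called higher in the HFD group without ND replicate 1 (log2 fold change 1.05, against 1.40 with it). Abca1 overlapped, at 4.58, 52.9 and 52.3 FPKM. The macrophage markers summed to 159 to 310.2 FPKM in the ND group and 2545 to 3530 FPKM in the HFD group, and all 12 of them were higher in every HFD library than in any ND library. The adipocyte markers summed to 11037 and 10412 FPKM in ND replicates 2 and 3 and to 5741 to 5800 FPKM in the HFD group, with 9 of 10 lower in every HFD library than in these 2 ND libraries and Lep higher. The 6 mesothelial markers summed to 27.1 to 72.1 and 9.24 to 12.1 FPKM. The part of these cell types in the rise of Soat1 and of the enzymes was not tested. Of the other sterol genes, 3 of 49 (6.12%) were called, all higher, against 1.77% of all genes. Among these 3 called genes, Nceh1, a cholesteryl ester hydrolase of macrophages, had the highest log2 fold change, 4.40 (SE 0.51, adjusted p of 0.0241 in limma). Pltp had the lowest of the 3, 2.92 (SE 0.44, adjusted p of 0.042 in limma). Lipa was higher still, at 4.71, but was not called (adjusted p of 0.105 in limma). Without ND replicate 1, 13 (26.5%) were called, 9 higher and 4 lower, against 15.4% of all genes, from Nceh1 at 3.89 to Por, an electron donor of Cyp51, at -1.14.

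**Figure D4:**
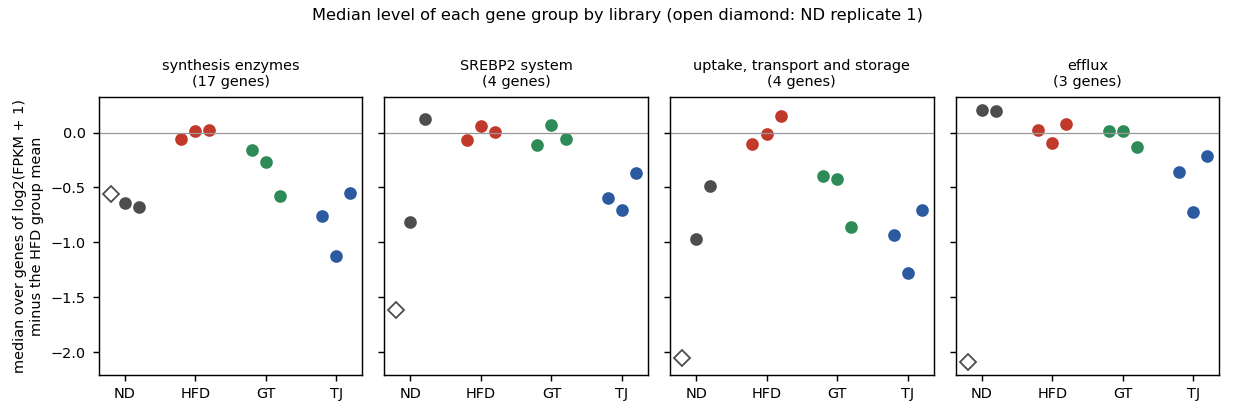
Median over the genes of each group of log2(FPKM + 1) minus the HFD group mean, for each library (open diamond, ND replicate 1). The 17 enzymes have medians of -0.56 to -0.68 in the ND group, -0.16 to -0.57 in the GT group and -0.55 to -1.12 in the TJ group, and ND replicate 1 is the lowest library for the SREBP2 system, the uptake, transport and storage genes, and the efflux genes.

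The green tea extract was compared with the same HFD libraries, so the results for GT and TJ share their controls. In the GT group, 4 of the 30 genes were called: Apoe and Hmgcs1 were higher and Sqle and Msmo1 lower. Of 12766 genes tested, 3.63% were called, 1.83% higher and 1.81% lower. Before adjustment, 14 of the 30 had p under 0.05 (29.3% of all genes). GT values lay entirely below HFD values for 10 genes (24.4% of all genes) and above them for 4 (12.3%), and the median log2 fold change was -0.21 over the 30 genes and -0.12 over all genes. Under median-of-ratios scaling these medians were -0.095 and -0.0235.

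Apoe was at 4112, 4829 and 4905 FPKM in GT replicates 1 to 3, each above each HFD library. The means were 4615 ± 437 FPKM (SD, n = 3) and 2625 ± 333 FPKM (SD, n = 3), with the largest log2 fold change of the 30 genes, 0.82 (SE 0.13, adjusted p of 0.0379 in limma). Hmgcs1 was at 167, 184 and 210.5 FPKM in the GT group, also above all HFD values, with a log2 fold change of 0.68 (SE 0.11, adjusted p of 0.0379 in limma). Sqle and Msmo1 went the other way. Sqle was at 6.16, 5.49 and 4.76 FPKM in the GT group, with a log2 fold change of -0.83 (SE 0.13, adjusted p of 0.0379 in limma), and Msmo1 was at 16.7, 14.8 and 13.5 FPKM, with a log2 fold change of -0.72 (SE 0.11, adjusted p of 0.034 in limma). Both were entirely below the HFD libraries. Soat1 had the smallest log2 fold change, -0.97 (SE 0.35, adjusted p of 0.129 in limma), from GT values of 35.3, 27.1 and 12.3 FPKM that ranged widely below the HFD group. Without GT replicate 3 it was -0.55, and without GT replicate 1 it was -1.27.

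The other genes that fell with TJ were not called with GT. Lss was at 5.53, 8.23 and 5.65, Cyp51 at 14.3, 13.0 and 10.5 and Nsdhl at 24.7, 20.7 and 18.3 FPKM. Srebf2 was at 17.2, 17.6 and 13.3, Npc1 at 16.9, 17.6 and 11.6 and Idi1 at 15.5, 13.3 and 9.59 FPKM. Fdps was at 38.3, 34.2 and 26.7, Hsd17b7 at 5.45, 6.15 and 5.02 and Stard4 at 5.01, 5.22 and 4.00 FPKM. All 9 had lower mean FPKM than in the HFD group, although Hsd17b7 turned to higher with quantile normalization. Values of Cyp51, Nsdhl, Srebf2, Npc1, Idi1, Fdps and Stard4 lay entirely below the HFD group, as did 24.4% of all genes. Those of Lss and Hsd17b7 overlapped with it. Dhcr7 was at 20.5, 15.7 and 11.8 FPKM and overlapped with the HFD group, and Insig1, at 193, 192 and 165 FPKM, also overlapped. The macrophage markers summed to 801 to 2133 FPKM and the adipocyte markers to 7546 to 12040 FPKM in the GT group. The macrophage sums thus lay below and the adipocyte sums above every HFD library. The adipose progenitor markers summed to 582 to 623 FPKM, below every HFD library, and the endothelial markers to 245.7 to 294 FPKM, above every HFD library. The part of these cell types was not tested. Without HFD replicate 1, 2 or 3 or GT replicate 2 or 3, limma called 0 of the 30 genes and 0.0311% to 0.533% of all genes, with 11 to 17 of the 30 and 19.2% to 29.1% of all genes at an unadjusted p under 0.05. Without GT replicate 1 it called 7 and 8.63% of all genes. Median-of-ratios scaling moved the calls over all genes from 233 higher and 231 lower to 368 and 154, with 2 higher and 2 lower among the 30. Of the other sterol genes, 2 of 47 (4.26%) were called against 3.63% of all genes, Tspo with a log2 fold change of 0.71 (SE 0.12, adjusted p of 0.0379 in limma) and Mbtps2 with -0.65 (SE 0.13, adjusted p of 0.0482 in limma).

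TJ was last compared with GT directly. Limma called 0 of the 30 genes, against 0.148% of 12187 genes tested (0.00821% lower), while 11 of the 30 had an unadjusted p under 0.05 (24.6% of all genes). TJ values lay entirely below GT values for 11 genes (14.9% of all genes) and above them for 1 (19.5%), and the median log2 fold change was -0.36 over the 30 genes and -0.03 over all genes (-0.23 and 0.01 without TJ replicate 2). Lss had the smallest log2 fold change, -1.45 (SE 0.29, adjusted p of 0.1 in limma), with TJ values of 2.58, 0.731 and 2.20 FPKM below GT values of 5.53, 8.23 and 5.65 FPKM. Nr1h2 had the largest, 0.45 (SE 0.15, adjusted p of 0.148 in limma), at 48.8, 60.8 and 47.5 FPKM in the TJ group and 40.7, 36.2 and 37.2 FPKM in the GT group. A difference between the extracts in these genes was therefore not shown by this test. Of 47 other sterol genes tested, limma called 0, with 6 at an unadjusted p under 0.05.

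The promoter letters were set beside the calls for TJ. Of the 11 genes called lower, 7 had a RefSeq window (Cyp51, Hsd17b7, Idi1, Lss, Msmo1, Nsdhl and Srebf2), and CCAAT was found for all 7, against 10 of the 16 other genes with a window and 41.1% of all genes. TCACCCCA was found for 1 of the 7 (Srebf2) and 2 of the 16. CACGTG was found for 1 of the 7 (Hsd17b7) and 5 of the 16. In the stretches printed above, Hmgcs1, which was not called, held 3 CCAAT boxes and 1 TCACNCCAC. Lss, with the lowest log2 fold change of the called genes, held 1 CCAAT box and neither of the spellings TCACNCCAC and TCACCCCA. This does not show that Lss lacks a sterol regulatory element, and the part of these letters in the calls was not tested.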

How the data were processed

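RNA-seq was performed on 12 eWAT libraries. Per the study's methods and the processing notes, the authors demultiplexed reads (CASAVA 1.8.2), mapped them with STAR to Ensembl release 72 and deposited FPKM computed with Cufflinks 2.1.1, after masking noncoding regions and correcting for multireads and fragment bias. STAR v2.3.0e and the human genome are named in the methods, STAR 2.4.0 in the notes, and all identifiers are mouse. Symbols, coordinates and exons came from GENCODE mouse release 21 (22671 of 23474 identifiers named).

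Each comparison was fitted in R 4.3.3 with limma 3.58.1 (lmFit, eBayes with trend) to log2(FPKM + 1) of its 6 libraries, without covariates, over genes whose mean reached 1 FPKM. The comparison was checked on simulated data. An exact permutation test of 3 against 3 libraries cannot give a p below 0.1 and was not used. The genes, lists and tests were chosen with earlier results of these data known. Each gene of the set is named with its FPKM, statistics are given for called genes and the highest and lowest log2 fold change, and of the other sterol genes the highest and lowest called are named. Deviations from the group means correlated at 0.547, 0.342 and 0.122 between HFD and ND libraries of numbers 1 to 3, and at 0.626 between HFD replicate 3 and ND replicate 2. The same-numbered values met the criterion for pairs (each over 0.1), although no source says what a number shares, and the replicate block was run as an alternative. Tables were handled with pandas 2.3.3 in python 3.11.15. Alternatives were other pseudocounts, filters, scalings and designs, and each library left out.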

Additional observations from a re-analysis of the deposited data

How the results depend on the processing

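The number of cholesterol genes called depended on the settings. For HFD against ND, 3 genes were called. Counts were 0 with a pseudocount of 0.1 (0.873% of all genes called) or 0.01 (0.769%), with no filter (0.927%) and with the replicate block (0%). They were 1 with median-of-ratios scaling (1.55%) or with the length trend removed (1.5%), 9 with all 12 libraries (7.84%) and 16 with array weights (42%). With single libraries left out they were 0 to 14 (0% to 15.4%). In settings added after the data were seen, they were 9 without ND replicate 1 and HFD replicate 1 (7.43%), 12 without ND replicate 1 under median-of-ratios scaling (13.5%) and 15 with 11 libraries (19.4%). For TJ against HFD (11 genes), the count was 7 with no filter (1.88% of all genes called), 8 with the replicate block (9.35%), 0 with all 12 libraries (0.00781%) and 0 to 15 with single libraries left out (0% to 26.5%). For GT against HFD (4 genes), the count was 0 with no filter (0.0257% of all genes), all 12 libraries (0.00783%), the replicate block (0.0392%) and eBayes without trend (0.525%). It was 1 with the 11 libraries (1.09%) and 0 to 7 with single libraries left out (0.0311% to 8.63%). For TJ against GT (0 genes), the count was 5 with array weights (13.6% of all genes) and 1 with the 11 libraries (2.03%). With every single library left out it was 0 (0.0327% to 0.665%). The causes were not tested. Where limma called 0 of the 30 genes, 2 to 19 of them had an unadjusted p under 0.05, as did 4.25% to 38.2% of all genes.

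Direction was followed for the called genes and for the highest and lowest gene of each comparison. For TJ against HFD, Hmgcs1, Dhcr7, Insig1 and Abcg1 were followed too. For HFD against ND, Hmgcs1 and the genes called without ND replicate 1 were added. None of these values turned for TJ against HFD (322 values), GT against HFD (90) or TJ against GT (37). For HFD against ND, 15 genes were followed and 14 of 300 values turned. These were 7 of Insig2, 5 of Hmgcs1, 1 of Apoe and 1 of Fdps. Over all 30 genes and settings, 52 of 599 values turned for HFD against ND (12 genes, 8 of them without ND replicate 1), 18 of 569 for TJ against HFD (5 genes), 17 of 540 for GT against HFD (6 genes) and 20 of 566 for TJ against GT (5 genes). Hmgcs1 was at -0.46 with array weights, without ND replicate 1 and with 11 libraries, -0.50 without ND replicate 1 and HFD replicate 1, and -0.53 without ND replicate 1 under median-of-ratios scaling. Insig2 was at -0.11 with median-of-ratios scaling, -0.0022 with quantile normalization, -0.51 with array weights, -0.73 without ND replicate 1 and with 11 libraries, -0.67 without ND replicate 1 and HFD replicate 1, and -0.80 without ND replicate 1 under median-of-ratios scaling. Apoe was at 0.037 with quantile normalization. With single libraries left out, Fdps ranged from -0.0127 (without ND replicate 2) to 1.41, Hmgcs1 from -0.46 to 1.17 and Insig2 from -0.73 to 0.62. With quantile normalization the calls over all genes for TJ against HFD were 1543 higher and 1151 lower, and for GT against HFD 405 and 162.

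Same-numbered deviations correlated at -0.029, -0.051 and 0.227 for TJ with HFD and 0.198, 0.053 and -0.070 for GT with HFD, which did not meet the criterion for pairs (each over 0.1), and what a number shares is not known. FPKM gave no depth, and differences in genes of a few FPKM, such as Hsd17b7 and Stard4, rest on the spread of 3 mice per group.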
